A study of Mus musculus with 24 samples.

Results

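Levels of 9 neuropeptide precursor genes and of the neurotensin receptor gene Ntsr1 were followed through the differentiation of 3 subtypes of mouse cortical projection neurons. The peptide genes were Npy, Adcyap1, Cck, Nts, Cartpt, Penk, Tac1, Pdyn and Crh. The 10 genes were taken by name from the deposited expression table, which lists 32310 entries, and all 10 were found there. Callosal neurons (which connect the hemispheres), subcerebral neurons (whose axons run to brainstem or spinal cord) and corticothalamic neurons (which project to the thalamus) were sorted by flow cytometry from CD1 mice at embryonic days E15, E16 and E18 and at postnatal day P1. No group carried a mutation or treatment according to the labels, and each of the 12 groups had 2 libraries. The table holds 1 pooled value per group in FPKM, a count of fragments divided by transcript length and by the mapped total, so no spread between libraries can be given, and read depth is unknown. The sources used here do not give the markers used for sorting or whether the 2 libraries came from separate litters.

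Neuropeptides are cut from larger precursor proteins inside dense-core vesicles and act mostly on G protein-coupled receptors, over a slower time course than fast transmitters. In the adult cortex, peptides such as neuropeptide Y are best known from GABAergic interneurons, whereas cholecystokinin is made by pyramidal neurons as well. Ntsr1 is widely known in the cortex as the gene whose regulatory sequence drives a Cre line used to reach corticothalamic neurons of the deepest layer.

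The subtype labels were checked against marker genes. Fezf2, a determinant of subcerebral identity, lay at 9.85 to 65.9 FPKM in the 4 callosal groups, at 127 to 366 FPKM in the subcerebral groups and at 65.8 to 125 FPKM in the corticothalamic groups. A list of 10 subcerebral markers, Fezf2 among them, summed to 73.5 to 167, 548 to 992 and 260 to 336 FPKM in these groups. In the fit described below, 6 of the 10 were higher and 0 lower in subcerebral than in corticothalamic neurons, and 14.7% of all genes were higher. A list of 11 callosal markers summed to 838 to 1227, 89.1 to 167 and 93.8 to 191 FPKM in callosal, subcerebral and corticothalamic groups. A list of 10 corticothalamic markers summed to between 97.0 and 336 FPKM in callosal groups, between 186 and 1026 FPKM in subcerebral groups and between 1108 and 1461 FPKM in corticothalamic groups. The subcerebral value of 1026 FPKM belongs to E15, so that group carried corticothalamic transcripts at a level close to the corticothalamic groups. Sums of FPKM ran from 355965 to 473871 over the 12 groups, and 12294 to 12838 entries reached 1 FPKM. In sorted bulk samples, fewer cells that make a transcript and less transcript per cell cannot be told apart.

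The RefSeq promoter table of build GRCm38.p6 had 8 of the 10 genes. The 250 bases before the start site are shown for the 6 genes that passed 5 FPKM in some group, because cyclic AMP signalling through the cyclic AMP response element is a known route of control of several peptide genes. The windows are chr6:49822460-49822709 on the plus strand for Npy, chr17:93198767-93199016 on the plus strand for the upstream of 2 listed starts of Adcyap1, and chr9:121495695-121495944 on the minus strand for Cck. They are chr10:102490419-102490668 on the minus strand for Nts, chr13:99900684-99900933 on the minus strand for Cartpt, and chr2:180499726-180499975 on the plus strand for Ntsr1. Each is written 5′ to 3′ along the gene, and capitals mark a response element (TGACG, or CGTCA where it lies on the other strand) or an AP-1 site (TGANTCA).
Npy: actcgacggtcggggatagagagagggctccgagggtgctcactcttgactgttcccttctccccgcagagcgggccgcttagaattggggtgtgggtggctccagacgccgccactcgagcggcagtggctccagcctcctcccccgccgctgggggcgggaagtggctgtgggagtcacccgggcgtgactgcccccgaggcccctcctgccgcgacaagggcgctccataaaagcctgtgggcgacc
Adcyap1: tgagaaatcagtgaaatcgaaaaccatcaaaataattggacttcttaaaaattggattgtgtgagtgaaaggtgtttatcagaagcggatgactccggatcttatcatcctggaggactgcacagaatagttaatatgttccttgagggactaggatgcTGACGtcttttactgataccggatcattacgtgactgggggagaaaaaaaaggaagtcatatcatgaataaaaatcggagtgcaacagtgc
Cck: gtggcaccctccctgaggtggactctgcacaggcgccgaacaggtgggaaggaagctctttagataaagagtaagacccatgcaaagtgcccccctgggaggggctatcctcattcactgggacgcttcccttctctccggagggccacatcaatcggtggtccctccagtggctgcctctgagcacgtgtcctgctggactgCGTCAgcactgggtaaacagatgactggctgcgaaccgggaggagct
Nts: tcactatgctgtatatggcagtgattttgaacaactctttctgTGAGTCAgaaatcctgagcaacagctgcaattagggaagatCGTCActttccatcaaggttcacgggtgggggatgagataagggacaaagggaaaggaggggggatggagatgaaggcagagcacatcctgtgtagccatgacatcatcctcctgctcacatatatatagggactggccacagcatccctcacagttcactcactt
Cartpt: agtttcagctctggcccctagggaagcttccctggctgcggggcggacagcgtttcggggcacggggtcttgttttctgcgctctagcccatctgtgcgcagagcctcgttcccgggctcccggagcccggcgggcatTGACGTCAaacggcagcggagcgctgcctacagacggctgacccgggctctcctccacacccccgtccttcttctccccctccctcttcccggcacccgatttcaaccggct
Ntsr1: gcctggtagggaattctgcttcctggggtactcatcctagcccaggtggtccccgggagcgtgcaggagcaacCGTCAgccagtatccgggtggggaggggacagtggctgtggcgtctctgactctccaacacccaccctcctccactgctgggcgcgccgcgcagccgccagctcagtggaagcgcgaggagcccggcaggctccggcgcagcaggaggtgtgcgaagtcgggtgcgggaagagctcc

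The shorter element TGACG was present on either strand in 6 of the 8 matched genes, Adcyap1, Cartpt, Cck, Nts, Ntsr1 and Tac1, and in 17.8% of 32851 mouse promoters of that length. The full palindrome TGACGTCA, which contains TGACG on both strands, was present in Cartpt, 112 to 105 bases before the start, and in 1.55% of all promoters. In Cck the short element lay 47 to 43 bases before the start, in Adcyap1 91 to 87, in Nts 166 to 162 and in Ntsr1 177 to 173. An AP-1 site (TGANTCA) lay in the Nts window at 207 to 201 bases before the start, and 6.75% of all promoters hold that motif. CCAAT was found in Adcyap1, Npy, Pdyn and Tac1 and in 33.8% of all promoters. TATAAA was found in a window of Adcyap1, that of its downstream start, and in 12.4% of all promoters. These are matches of letters and do not show that a factor binds.

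Levels of the 10 genes spanned a wide range. At P1, Npy was the 93rd-ranked entry of the callosal group, the 109th of the subcerebral group and the 33rd of the corticothalamic group by FPKM. At E15 its ranks were 5325, 7718 and 793 in callosal, subcerebral and corticothalamic neurons. Npy, Ntsr1, Cck and Adcyap1 passed 20 FPKM in at least 1 group, whereas Nts, Cartpt, Penk and Tac1 stayed below 15 FPKM in every group and Pdyn and Crh below 1 FPKM.

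**Figure D1:**
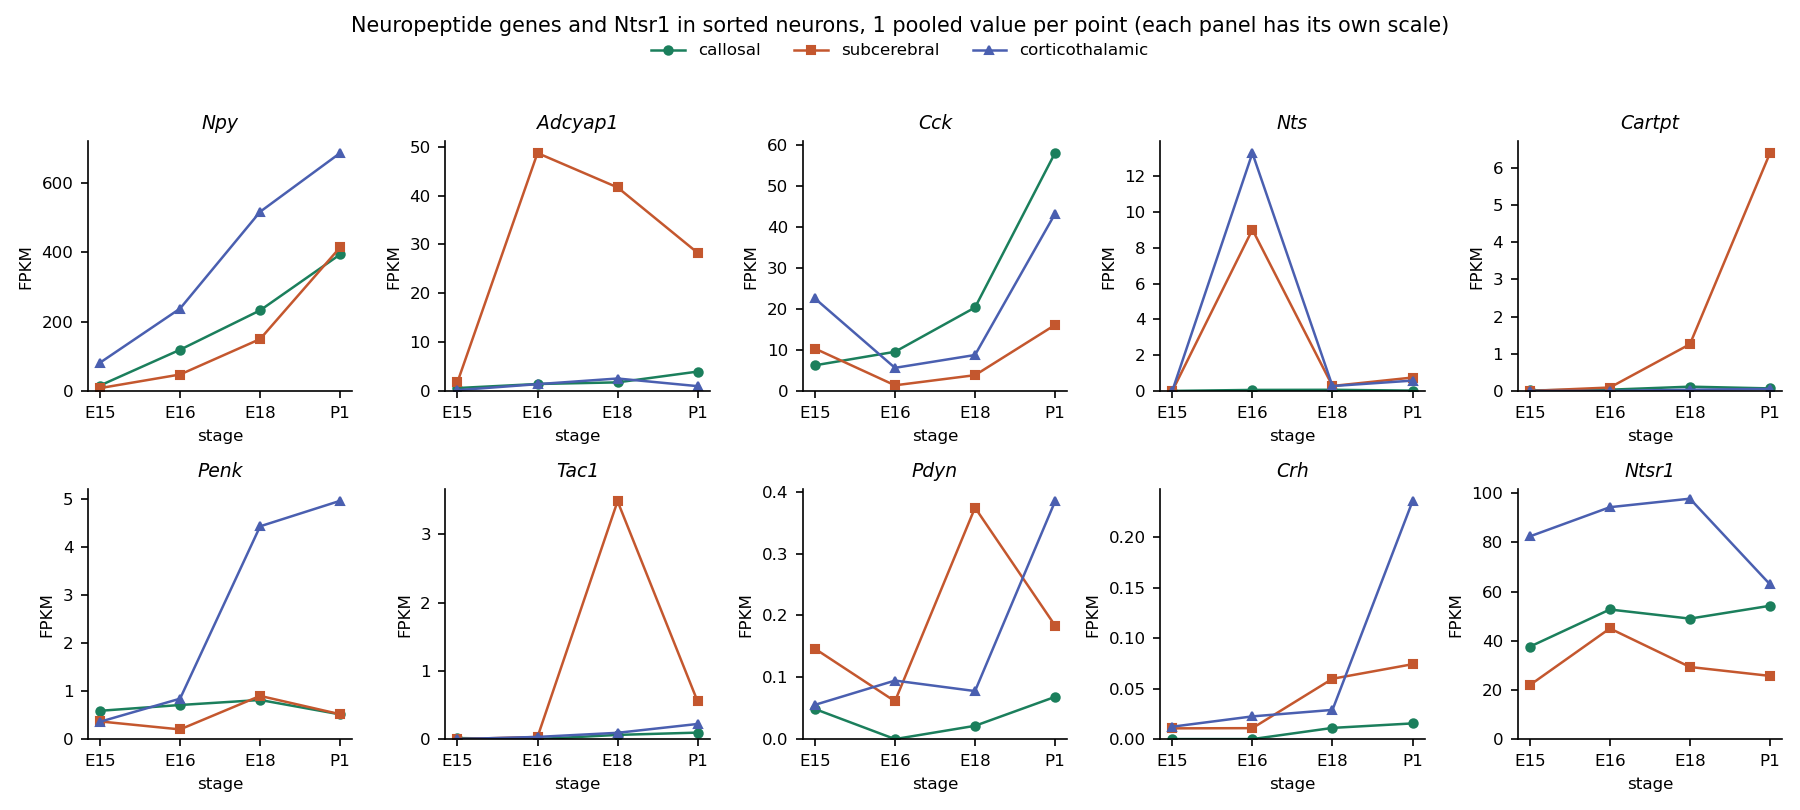
FPKM (vertical axis, a separate scale in each panel) of the 10 genes at E15, E16, E18 and P1 in callosal (circles), subcerebral (squares) and corticothalamic (triangles) neurons, 1 pooled value per point with no error. Npy climbs in all 3 subtypes, Adcyap1 is high in subcerebral neurons from E16, Nts peaks at E16 at 9.01 FPKM in subcerebral and 13.3 FPKM in corticothalamic neurons, and Pdyn and Crh stay below 1 FPKM.

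Differences between subtypes were tested over the 4 stages together, and differences between stages over the 3 subtypes together. The model was limma's linear fit on log2(FPKM + 1) with additive stage and subtype terms, over the 13946 genes that reached 1 FPKM in 2 or more groups, and p-values were adjusted by the Benjamini-Hochberg method over those genes, with a threshold of 0.05. Because each group has 1 value, the error measures how evenly a difference held across stages or subtypes and contains no spread between libraries. On this scale a difference understates the change of genes near 1 FPKM. The filter kept 7 of the 10 genes, and Tac1, Pdyn and Crh were not tested. Nts, Cartpt and Penk each reached 1 FPKM in 2 groups, the ones where they are high, so they passed the filter through those groups alone and their p-values are not independent of that selection.

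Of these 7 genes, 1 was higher and 1 lower in callosal than in subcerebral neurons, and 29.3% of all genes tested differed there (14.1% higher and 15.2% lower). Between callosal and corticothalamic neurons, 2 genes were lower in callosal neurons, against 31.3% of all genes called (15.3% higher and 16% lower). No peptide gene or Ntsr1 was higher there, also at an unadjusted p under 0.05 in limma. Between subcerebral and corticothalamic neurons 3 genes differed, 1 higher and 2 lower in subcerebral neurons, against 27.5% of all genes called (14.7% higher and 12.8% lower). These counts are small, and no departure from the share called among all genes is read from them.

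**Figure D2:**
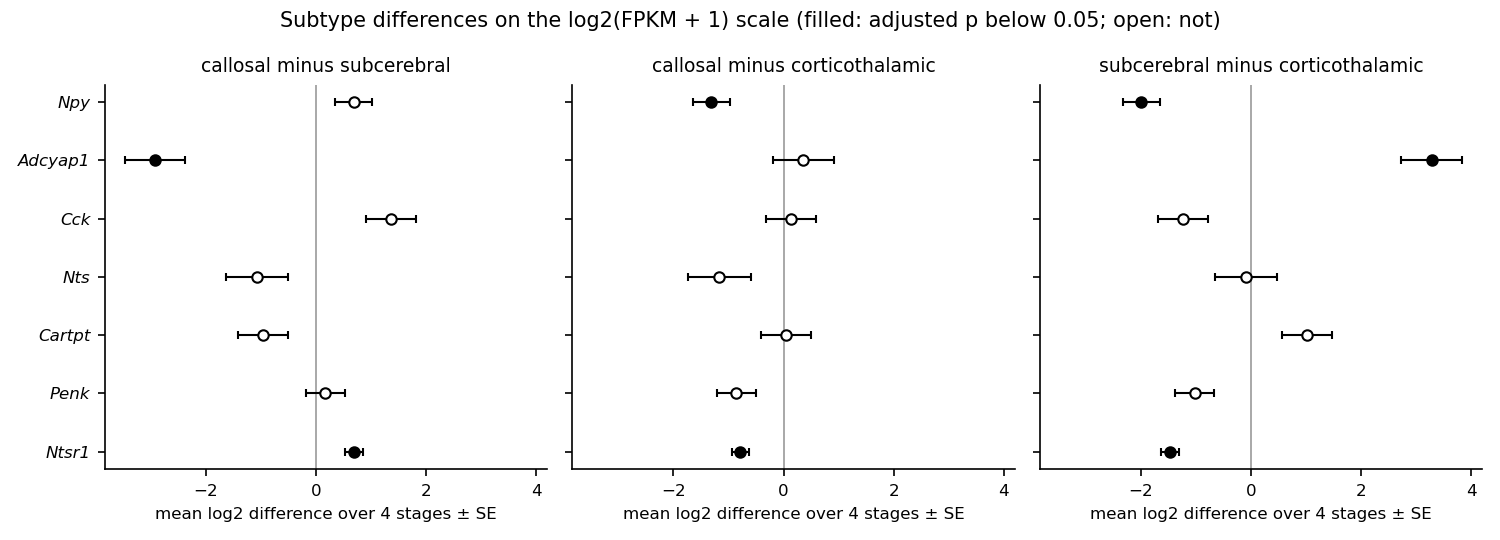
Mean difference in log2(FPKM + 1) over the 4 stages (horizontal axis), with its standard error from the limma fit, for the 7 tested genes in each pair of subtypes; filled points passed an adjusted p of 0.05 and open points did not. Adcyap1 stands at -2.92 for callosal minus subcerebral and at 3.28 for subcerebral minus corticothalamic, and Ntsr1 is filled in all 3 panels.

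Between E16 and E15, 1 gene was higher at E16, against 5.16% of all genes called (2.53% higher and 2.62% lower). Between E18 and E16, 0 of the 7 genes passed in limma, 2 had an unadjusted p under 0.05, and 4.45% of all genes were called (2.83% higher and 1.61% lower at E18). Between P1 and E18, 1 gene was higher at P1, against 40.2% of all genes called (19.6% higher and 20.6% lower). Between P1 and E15, 3 genes were higher at P1, where 67.4% of all genes tested were called, 33.8% higher and 33.6% lower.

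Npy encodes neuropeptide Y, a peptide that acts on Y receptors and dampens excitation in many circuits. Its level climbed with every stage in every subtype and was highest in corticothalamic neurons throughout. In callosal neurons Npy stood at 15.6, 119, 233 and 394 FPKM at E15, E16, E18 and P1. In subcerebral neurons it stood at 8.13, 47.4, 149.8 and 415 FPKM, and in corticothalamic neurons at 81.5, 238, 517 and 687 FPKM. The lowest P1 value, 394 FPKM in callosal neurons, was above every value at E15 and E16, and below the E18 value of corticothalamic neurons. The P1 level was 25.3 times the E15 level in callosal neurons, 51.0 times in subcerebral neurons and 8.43 times in corticothalamic neurons.

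Over the subtypes, Npy was higher at P1 than at E15 by 4.38 ± 0.39 on the log2 scale (SE; limma adjusted p = 3.28e-05), a difference that passed in 21 of 21 other settings tried. The step between E16 and E15 was 2.26 ± 0.39 (adjusted p = 0.0213), but with adjusted p values up to 0.195 it was not called in 7 of 21 other settings, among them each one that left out an E16 value or the E15 subcerebral value. The later steps, 1.24 ± 0.39 between E18 and E16 (adjusted p = 0.101) and 0.88 ± 0.39 between P1 and E18 (adjusted p = 0.104), did not pass in limma.

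Npy was lower in subcerebral than in corticothalamic neurons, by a mean difference of -2.0 ± 0.33 (limma adjusted p = 0.00689), and lower in callosal than in corticothalamic neurons, by -1.31 ± 0.33 (adjusted p = 0.0188). The gap narrowed with age in the levels themselves: the corticothalamic level was 10.02 times the subcerebral level at E15, 5.01 times at E16, 3.45 times at E18 and 1.66 times at P1. The change of the gap over stages was not tested, since each group has 1 value. Without E16 or without E18 the adjusted p was 0.0663 and 0.0755 for subcerebral minus corticothalamic, and 0.0714 and 0.0883 for callosal minus corticothalamic. The second comparison also missed the threshold without the E15 callosal value (0.0570), the E18 callosal value (0.0519) or the E16 corticothalamic value (0.0560). Callosal and subcerebral neurons differed by 0.68 ± 0.33 (adjusted p = 0.152), which did not pass.

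Since Npy is a known interneuron gene, markers of interneurons and of subplate neurons were read in the same groups. The summed level of 18 interneuron markers was 99.6 FPKM in the E15 callosal group, the group in which 12 of the 18 were highest, and Npy there was 15.6 FPKM. At E16, E18 and P1 the sum was 8.70, 7.35 and 9.01 FPKM in callosal neurons, 13.4, 21.1 and 11.005 FPKM in subcerebral neurons and 28.2, 25.6 and 44.3 FPKM in corticothalamic neurons. At E15 it was 5.94 FPKM in subcerebral and 13.4 FPKM in corticothalamic neurons. In P1 corticothalamic neurons, where Npy stood at 687 FPKM, Gad1, the GABA-synthesising enzyme, made up 1.93 FPKM of the summed 44.3 FPKM. Gad1 is 1 of the 18 markers and does not stand for the others, which made up most of that sum. A list of 12 subplate markers summed to 16.5 to 62.5 FPKM in callosal groups, 19.8 to 57.0 FPKM in subcerebral groups and 86.7 to 263 FPKM in corticothalamic groups, and 8 of the 12 were highest in P1 corticothalamic neurons. None of the 12 subplate markers was at 0 in any group. A list of 14 striatal projection neuron markers summed to 19.4 to 31.3 FPKM in callosal groups, 28.2 to 94.1 FPKM in subcerebral groups and 158 to 280 FPKM in corticothalamic groups. The subplate and striatal sums at every stage, and the interneuron sum from E16 on, were thus highest in corticothalamic neurons, as Npy was, and their part in the Npy difference was not tested.

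Adcyap1 encodes PACAP, the pituitary adenylate cyclase-activating peptide, which raises cyclic AMP through its receptor. At each stage subcerebral neurons had the most of it, with more than 28 FPKM from E16 on. In callosal neurons it stood at 0.592, 1.42, 1.75 and 3.96 FPKM at E15, E16, E18 and P1. In subcerebral neurons it stood at 1.80, 48.7, 41.7 and 28.3 FPKM. In corticothalamic neurons it stood at 0.161, 1.39, 2.55 and 0.980 FPKM. From E16 on, all 3 subcerebral values were above 28 FPKM and no value of another subtype passed 4 FPKM. At E15 all 3 subtypes were below 2 FPKM.

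The subcerebral level of Adcyap1 was 11.2 times the corticothalamic level at E15, where both were low, 35.1 times at E16, 16.4 times at E18 and 28.9 times at P1. Within subcerebral neurons, the E16 level was 27.1 times the E15 level. Callosal neurons had less of it than subcerebral neurons over the stages, by a mean of -2.92 ± 0.55 on the log2 scale (SE; limma adjusted p = 0.00674). It was higher in subcerebral than in corticothalamic neurons by 3.28 ± 0.55 (adjusted p = 0.00689). Without E16 and without E18 the adjusted p was 0.0604 and 0.0680 in the first of these comparisons and 0.0630 and 0.0752 in the second, while the difference stayed at -2.44 or beyond and at 2.91 or above. Callosal and corticothalamic neurons differed by 0.36 ± 0.55 (adjusted p = 0.655). The difference between P1 and E15 over the subtypes was 1.93 ± 0.63 (limma adjusted p = 0.0245), and it missed the threshold without the E15 subcerebral value (1.02, 0.0547), the P1 subcerebral value (1.88, 0.0720), the P1 callosal value (1.64, 0.0914), all subcerebral values (1.21, 0.0543) or all callosal values (2.08, 0.0556). The summed corticothalamic markers in subcerebral neurons were 1026, 389, 227 and 186 FPKM at E15, E16, E18 and P1, so the group with little Adcyap1 was also the one with the most corticothalamic transcript; its part in the low E15 value was not tested.

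Cck encodes cholecystokinin, one of the most abundant peptides of the adult cortex. Callosal neurons had 6.25, 9.55, 20.4 and 58.1 FPKM of it at E15, E16, E18 and P1. Subcerebral neurons had 10.3, 1.37, 3.85 and 16.1 FPKM, and corticothalamic neurons 22.6, 5.63, 8.77 and 43.2 FPKM. The order of the subtypes turned over between E15 and E16: at E15 corticothalamic neurons were highest and callosal neurons lowest, and at E16, E18 and P1 callosal neurons were highest and subcerebral neurons lowest. The level fell at E16 to 0.132 of its E15 value in subcerebral neurons and to 0.250 in corticothalamic neurons, while it was 1.53 times the E15 value in callosal neurons.

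Every subtype gained Cck after E16. The P1 level was 6.08 times the E16 level in callosal neurons, 11.8 times in subcerebral neurons and 7.68 times in corticothalamic neurons. In the fit, Cck was higher at P1 than at E18 by 1.82 ± 0.53 on the log2 scale (SE; limma adjusted p = 0.0245) and higher at P1 than at E15 by 1.51 ± 0.53 (adjusted p = 0.0313). These calls did not hold in 7 and 6 of 21 other settings, with adjusted p values up to 0.156 and 0.0994, among them each one that left out a P1 value. The step between E16 and E15, -1.18 ± 0.53, was not called (adjusted p = 0.212), and it passed without the E15 callosal value (-2.03, adjusted p = 0.00368).

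Over all 4 stages the subtypes did not pass the threshold for Cck. The mean difference was 1.36 ± 0.45 for callosal minus subcerebral (limma adjusted p = 0.0541), -1.23 ± 0.45 for subcerebral minus corticothalamic (adjusted p = 0.0737) and 0.13 ± 0.45 for callosal minus corticothalamic (adjusted p = 0.855). Without E15 the 3 differences were 2.03, -1.29 and 0.74, with adjusted p values of 0.000175, 0.000761 and 0.00637. The E15 callosal group, whose Cck value was the lowest at that stage, was the group with the highest interneuron marker sum given above.

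Nts encodes the precursor of neurotensin, a peptide that modulates dopamine signalling and body temperature among other functions. Nts was near 0 outside a narrow window at E16. Callosal neurons had 0, 0.056, 0.064 and 0.018 FPKM at E15, E16, E18 and P1. Subcerebral neurons had 0, 9.01, 0.276 and 0.749 FPKM, and corticothalamic neurons 0.011, 13.3, 0.272 and 0.577 FPKM. The gene thus passed 1 FPKM in 2 groups, E16 subcerebral and E16 corticothalamic neurons, and was listed at 0 in 2 groups at E15.

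For Nts the difference between E16 and E15 was 2.41 ± 0.65 on the log2 scale (SE; limma adjusted p = 0.0716), and that between E18 and E16 was -2.15 ± 0.65 (adjusted p = 0.0960), so neither passed over the 3 subtypes. Without callosal neurons these differences were 3.57 and -3.23, without the E16 callosal value 3.47 and -3.21, and with a pseudocount of 0.1 the first was 4.69. Nts passed the filter through its E16 subcerebral and corticothalamic values alone, so no call is read from these settings. Callosal neurons differed from subcerebral neurons by -1.07 ± 0.57 (adjusted p = 0.181) and from corticothalamic neurons by -1.17 ± 0.57 (adjusted p = 0.153). Each E16 value is a pool of the libraries of that stage and subtype, and whether both libraries carried Nts cannot be read from the table.

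Ntsr1 encodes the high-affinity neurotensin receptor, which couples to Gq proteins. Unlike its ligand it was above 20 FPKM in every group. Callosal neurons had 37.6, 52.7, 49.0 and 54.2 FPKM at E15, E16, E18 and P1. Subcerebral neurons had 21.9, 45.0, 29.3 and 25.7 FPKM, and corticothalamic neurons 82.4, 94.3, 97.7 and 62.9 FPKM. At each stage the order was the same, corticothalamic above callosal above subcerebral, and the lowest corticothalamic value exceeded the highest value of either other subtype. At P1 corticothalamic neurons (62.9 FPKM) and callosal neurons (54.2 FPKM) were nearest to each other.

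The corticothalamic level of Ntsr1 was 3.76 times the subcerebral level at E15, 2.10 times at E16, 3.33 times at E18 and 2.45 times at P1. The mean difference was -1.47 ± 0.16 on the log2 scale for subcerebral minus corticothalamic (SE; limma adjusted p = 0.00169), and it passed in 22 of 22 other settings. It was -0.78 ± 0.16 for callosal minus corticothalamic (adjusted p = 0.00770), with an adjusted p of 0.0640 without E18. It was 0.69 ± 0.16 for callosal minus subcerebral (adjusted p = 0.0160), and there the adjusted p was 0.0956 without E18, 0.0503 without P1, 0.0614 without the E18 subcerebral value and 0.0554 without the P1 subcerebral value. The difference between E16 and E15 was 0.56 ± 0.19 (adjusted p = 0.117). The gene used to mark corticothalamic neurons in adult mice was thus read in the sorted groups of all 3 subtypes at these ages. The groups differed by a few fold and not by presence or absence. Summed corticothalamic markers were 97.0 to 336 FPKM in callosal, 186 to 1026 FPKM in subcerebral and 1108 to 1461 FPKM in corticothalamic groups. The part of corticothalamic cells in the Ntsr1 values of the other groups was not tested.

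Cartpt encodes the precursor of CART peptides, which are linked to feeding and reward. It was near 0 at E15 and E16 in all subtypes and appeared late in subcerebral neurons. Callosal neurons stayed at or below 0.115 FPKM and corticothalamic neurons at or below 0.054 FPKM, while subcerebral neurons had 0, 0.092, 1.26 and 6.40 FPKM at E15, E16, E18 and P1. The mean difference over the stages was -0.97 ± 0.45 on the log2 scale for callosal minus subcerebral (limma adjusted p = 0.137) and 1.02 ± 0.45 for subcerebral minus corticothalamic (adjusted p = 0.121). The additive model averages over stages, so a gene present in the later groups of 1 subtype has a wide error in it.

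Penk encodes proenkephalin, the source of enkephalins, which act on opioid receptors. In callosal neurons Penk stood at 0.589, 0.709, 0.814 and 0.514 FPKM at E15, E16, E18 and P1, and in subcerebral neurons at 0.367, 0.201, 0.899 and 0.517 FPKM. Corticothalamic neurons had 0.361, 0.841, 4.43 and 4.96 FPKM. The E18 and P1 corticothalamic values lay above 4 FPKM and the other 10 values below 1 FPKM. The mean difference was -0.86 ± 0.35 on the log2 scale for callosal minus corticothalamic (limma adjusted p = 0.0979) and -1.02 ± 0.35 for subcerebral minus corticothalamic (adjusted p = 0.0606). Without E15 these were -1.22 and -1.37; since Penk passed the filter through the E18 and P1 corticothalamic groups alone, no call is read from them. The summed striatal markers were also highest in these groups, 280 FPKM at E18 and 263 FPKM at P1, as was the summed subplate list in the P1 group (263 FPKM), and their part in the Penk values was not tested. Pdyn, which encodes the precursor of the dynorphins, did not pass 0.385 FPKM in any group.

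Tac1 encodes the precursor of substance P and neurokinin A. It reached 3.49 FPKM in E18 subcerebral neurons and 0.551 FPKM in P1 subcerebral neurons, and it was at or below 0.222 FPKM in the other 10 groups. The E18 subcerebral group also stood apart in markers of striatal projection neurons, a cell type that makes substance P. Of 14 such markers, 8 were highest in that group, among them Rxrg at 4.58 FPKM and Drd2 at 1.27 FPKM. In the other 11 groups Rxrg was at or below 0.354 FPKM. The summed level of the list was 43.4 FPKM in that group, within the range of the other subcerebral groups. None of the 14 was at 0 there, which also held in P1 callosal, E16 and P1 subcerebral and E18 corticothalamic neurons. The part of striatal cells in the Tac1 value was not tested. Crh, which encodes corticotropin-releasing hormone, was at or below 0.236 FPKM in every group.

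**Figure D3:**
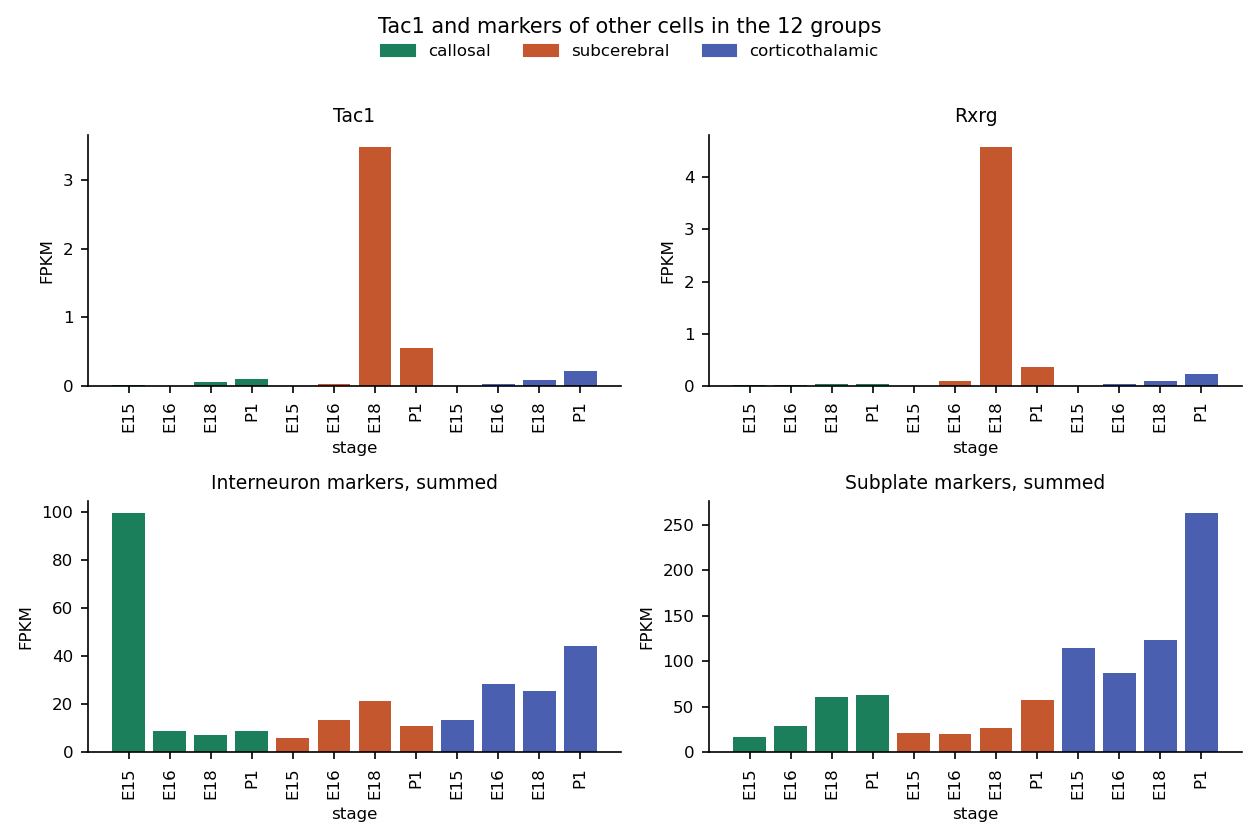
FPKM (vertical axes) of Tac1, of the striatal marker Rxrg, and of the summed interneuron and subplate marker lists in the 12 groups, shown as bars from 0 in callosal, subcerebral and corticothalamic order, each by stage. Tac1 at 3.49 FPKM and Rxrg at 4.58 FPKM are both highest in E18 subcerebral neurons, the interneuron sum is highest in E15 callosal neurons at 99.6 FPKM, and the subplate sum in P1 corticothalamic neurons at 263 FPKM.

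Genes with the most similar pattern were sought for Npy, Adcyap1, Cck, Nts, Cartpt and Ntsr1 by Pearson's r of log2(FPKM + 1) over the 12 groups, among 10743 genes that reached 5 FPKM (Penk, below 5 FPKM in every group, was not searched); the groups share stages, subtypes and preparation, and r is given as a description. Nearest to Adcyap1 were Tcerg1l (r = 0.974), Rexo2 (0.961) and Btbd10 (0.957). Tcerg1l reached 166 FPKM in P1 subcerebral neurons. Nearest to Npy were Cyp46a1 (0.968), a brain cholesterol hydroxylase, the kinase gene Pnck (0.967) and the adhesion gene Cadm2 (0.966). Nearest to Cartpt was the collagen gene Col12a1 (0.980), then Afap1l2 (0.966). Nearest to Ntsr1 were Dnajc4 (0.903), EG245297 (0.897) and Kitl (0.884), the ligand of the receptor Kit. Nearest to Cck were Sfxn5 (0.926) and Cds2 (0.916). The Nts pattern had no close partner, with BC002163 (0.753) nearest. Among the members themselves the highest r was 0.63, between Adcyap1 and Cartpt, both highest in subcerebral neurons.

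Receptors and binding proteins of the 9 peptides formed a list of 23 genes, of which 22 were in the table and 7 passed the filter. In callosal against subcerebral neurons, 5 of the 7 were higher and 0 lower (0 lower also at an unadjusted limma p under 0.05). In callosal against corticothalamic neurons, 4 were higher and 1 lower, and in subcerebral against corticothalamic neurons, 2 were higher and 1 lower. Ntsr2, 1 of these 2, passed the filter through subcerebral and callosal groups alone. The median differences of the 7 were 0.65, 0.75 and -0.06, beside medians of -0.01, 0.01 and 0.00 over all genes tested, of which 29.3%, 31.3% and 27.5% were called. Some markers of other cells moved the same way. Against subcerebral neurons, callosal neurons were higher in 7 of 8 tested microglia markers, and against corticothalamic neurons they were higher in 7 and lower in 1. Of 8 tested astrocyte and radial glia markers, 4 and 2 were higher in callosal neurons. Interneuron, subplate and striatal markers did not move this way. Of 12 tested interneuron markers, 0 were called in either comparison. Of 9 tested subplate markers, 1 was higher in callosal neurons in each comparison, and 3 and 5 were lower. Of 5 tested striatal markers, 0 were higher, and 2 and 3 were lower. The 11 microglia markers summed to 5.29 to 41.6 FPKM in callosal, 4.18 to 7.40 FPKM in subcerebral and 5.77 to 8.95 FPKM in corticothalamic groups. Of these, 10 were highest in E16 callosal neurons. The tested ones may thus have passed the filter mainly through callosal groups, so their counts are given as a description. The 11 astrocyte and radial glia markers summed to 34.0 to 67.8 FPKM in callosal, 35.0 to 57.2 FPKM in subcerebral and 20.6 to 68.7 FPKM in corticothalamic groups. The part of these cells in the receptor differences was not tested.

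Adcyap1r1, the PACAP-selective receptor gene, had its highest levels in callosal neurons, whereas its ligand gene was highest in subcerebral neurons. Callosal neurons had 38.4, 25.7, 25.8 and 28.5 FPKM at E15, E16, E18 and P1, against 20.0, 14.2, 14.3 and 16.8 FPKM in subcerebral neurons. Corticothalamic neurons had 18.9, 15.9, 14.1 and 19.5 FPKM. Every callosal value was above every value of the other subtypes. The mean difference was 0.81 ± 0.07 on the log2 scale for callosal minus subcerebral (SE; limma adjusted p = 0.000324) and 0.75 ± 0.07 for callosal minus corticothalamic (adjusted p = 0.000234). Vipr1, a receptor for PACAP and VIP, was also higher in callosal neurons, by 1.27 ± 0.23 (adjusted p = 0.00534) and 1.12 ± 0.23 (adjusted p = 0.00707) against subcerebral and corticothalamic neurons.

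Npy1r, the Y1 receptor gene, ran opposite to Npy across subtypes. Callosal neurons had 1.14, 10.7, 22.3 and 12.3 FPKM at E15, E16, E18 and P1, and subcerebral neurons 2.27, 17.0, 30.0 and 10.5 FPKM. Corticothalamic neurons, the richest in Npy, had 0.592, 6.68, 7.38 and 2.16 FPKM. In each subtype the receptor was highest at E18, while Npy went on to its highest value at P1. Npy1r was higher in callosal than in corticothalamic neurons by 1.14 ± 0.24 on the log2 scale (limma adjusted p = 0.00853) and higher in subcerebral than in corticothalamic neurons by 1.5 ± 0.24 (adjusted p = 0.00625).

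Of the other neurotensin-binding genes, Ntsr2, the low-affinity receptor, was highest in subcerebral neurons at E18 and P1 and in callosal neurons at E15 and E16. Callosal neurons had 0.313, 0.690, 1.59 and 1.65 FPKM at E15, E16, E18 and P1, subcerebral neurons had 0.0349, 0.560, 4.60 and 7.81 FPKM, and corticothalamic neurons stayed at or below 0.606 FPKM. It was higher in subcerebral than in corticothalamic neurons by 1.28 ± 0.39 on the log2 scale (limma adjusted p = 0.0435), though it passed the filter through subcerebral and callosal groups alone. Callosal minus subcerebral was -0.60 ± 0.39 (adjusted p = 0.275) and did not pass. Sort1, the sorting receptor sortilin that binds neurotensin, followed the order of Ntsr1, with 38.3 to 56.7 FPKM in callosal, 27.3 to 43.8 FPKM in subcerebral and 53.5 to 66.1 FPKM in corticothalamic neurons. Its difference was -0.81 ± 0.09 for subcerebral minus corticothalamic (limma adjusted p = 0.00182). Sorl1, of the same receptor family, was higher in callosal than in subcerebral neurons by 0.90 ± 0.23 (adjusted p = 0.0227).

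Crhr1, the receptor of corticotropin-releasing hormone, reached 19.4 FPKM in P1 callosal neurons, against 6.57 FPKM in P1 subcerebral and 9.88 FPKM in P1 corticothalamic neurons, although Crh itself was near 0 in all groups. It was higher in callosal than in subcerebral neurons by 0.65 ± 0.19 on the log2 scale (limma adjusted p = 0.0333). Receptors of the other peptides were low. The opioid receptor genes Oprm1, Oprd1 and Oprk1 did not pass 0.391 FPKM, the cholecystokinin receptor genes Cckar and Cckbr did not pass 0.612 FPKM, and the tachykinin receptor genes Tacr1, Tacr2 and Tacr3 did not pass 0.638 FPKM.

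**Figure D4:**
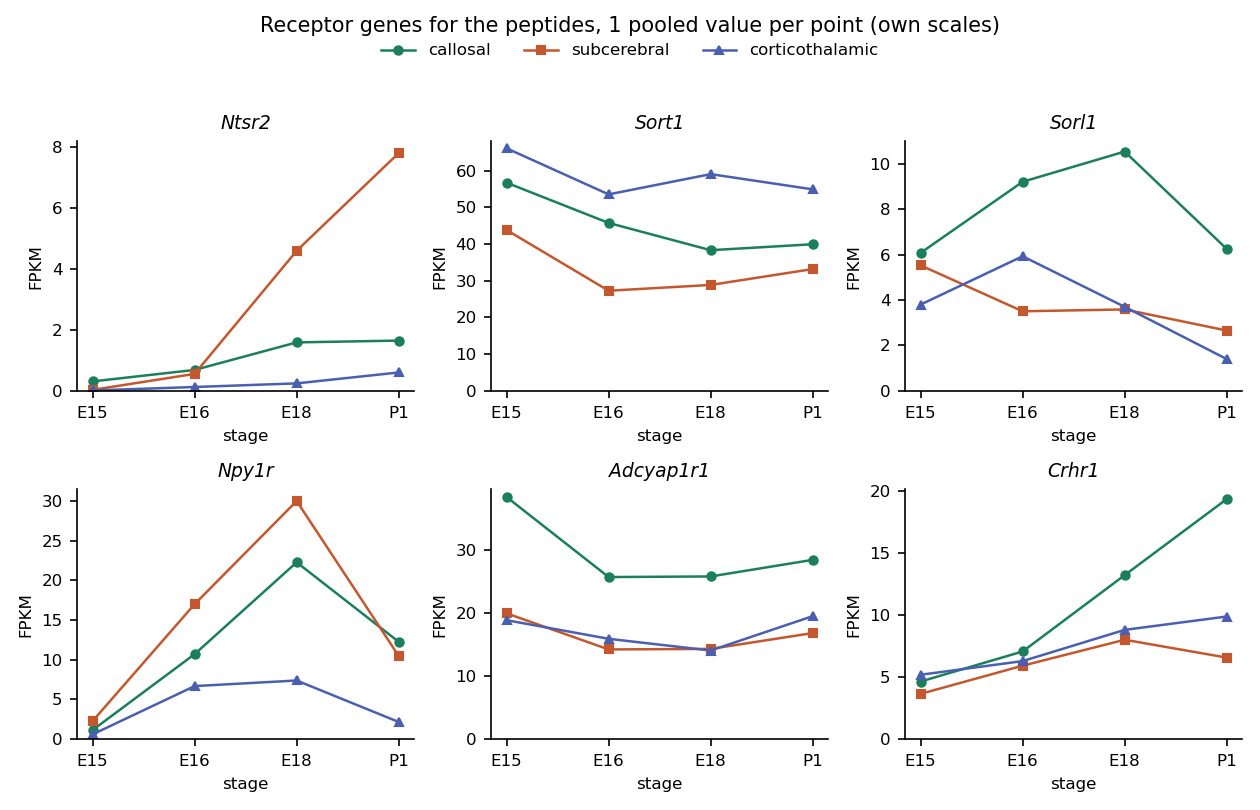
FPKM (vertical axis, a separate scale in each panel) of 6 receptor genes of the peptides at E15, E16, E18 and P1 in callosal (circles), subcerebral (squares) and corticothalamic (triangles) neurons, 1 pooled value per point with no error. Adcyap1r1 is highest in callosal neurons at every stage, and Npy1r is lowest in corticothalamic neurons at every stage.

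Precursors of other neuropeptides gave 12 tested genes. Between P1 and E15, 7 were higher and 1 lower, where 67.4% of all genes were called and 33.8% were higher. Between callosal and corticothalamic neurons 0 were higher and 5 lower (0 higher also at an unadjusted limma p under 0.05), where 31.3% of all genes were called and 16% were lower. Grp, the gastrin-releasing peptide precursor, had 0.209, 1.84, 6.30 and 15.8 FPKM in callosal neurons, 0.0176, 0.103, 0.436 and 4.17 FPKM in subcerebral neurons and 0.0158, 0.143, 2.87 and 19.5 FPKM in corticothalamic neurons at E15, E16, E18 and P1. It was higher in callosal than in subcerebral neurons by 1.42 ± 0.37 on the log2 scale (limma adjusted p = 0.0240), and its highest value was in P1 corticothalamic neurons, from which callosal neurons did not pass as different (0.55 ± 0.37, adjusted p = 0.297). Trh, the thyrotropin-releasing hormone precursor, reached 13.6 FPKM in P1 corticothalamic neurons, against 1.02 FPKM in P1 callosal and 1.01 FPKM in P1 subcerebral neurons. It was lower in callosal than in corticothalamic neurons by -1.48 ± 0.37 (adjusted p = 0.0183). Nppc, the C-type natriuretic peptide precursor, lay at 0.128 to 0.677 FPKM in callosal, 0.274 to 0.809 FPKM in subcerebral and 1.06 to 1.86 FPKM in corticothalamic neurons. Apln, the apelin precursor, lay at 0.194 to 0.501 FPKM in callosal, 0.121 to 0.291 FPKM in subcerebral and 0.783 to 1.60 FPKM in corticothalamic neurons. Both count among the 5, but they reached 1 FPKM in corticothalamic groups alone and passed the filter through them, so their levels are given as a description. Nucb2, the source of nesfatin, was lower in callosal neurons than in subcerebral neurons by -0.44 ± 0.07 (adjusted p = 0.00342) and than in corticothalamic neurons by -0.46 ± 0.07 (adjusted p = 0.00195).

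The list of peptide processing genes, which holds Scg5 and Pcsk1n beside the enzymes that cut and finish peptides, gave 13 tested genes. Of these, 8 were higher and 1 lower at P1 than at E15, where 67.4% of all genes were called and 33.8% were higher. In callosal against corticothalamic neurons 2 were higher and 7 lower, where 31.3% of all genes were called and 16% were lower. The lists share genes, so their counts are not separate. Pcsk1n is also counted among the other precursors, Scg5 among the dense-core vesicle genes, and Vgf in both of those lists. All of them were called higher at P1 than at E15. Pcsk2, a prohormone convertase of dense-core vesicles, had 1.38, 2.46, 21.1 and 53.0 FPKM in callosal neurons at E15, E16, E18 and P1. It had 2.52, 15.6, 16.5 and 25.7 FPKM in subcerebral neurons and 8.32, 20.2, 40.8 and 64.0 FPKM in corticothalamic neurons. Its stage difference, P1 minus E15, was 3.41 ± 0.52 on the log2 scale (limma adjusted p = 0.000520). Pcsk5, another convertase, was almost absent from callosal neurons, with 0.127 to 0.389 FPKM, against 4.88 to 8.34 FPKM in subcerebral and 6.08 to 12.9 FPKM in corticothalamic neurons. It differed by -2.51 ± 0.20 from subcerebral neurons (adjusted p = 0.000182) and by -3.03 ± 0.20 from corticothalamic neurons (adjusted p = 4.07e-05), having passed the filter through those subtypes alone. Pam, which amidates the end of peptides such as neuropeptide Y and PACAP, went the other way, with 19.9 to 30.1 FPKM in callosal, 3.03 to 7.21 FPKM in subcerebral and 8.55 to 15.8 FPKM in corticothalamic neurons. Its differences were 2.18 ± 0.24 (adjusted p = 0.000745) for callosal minus subcerebral and 1.07 ± 0.24 (adjusted p = 0.0107) for callosal minus corticothalamic. Subcerebral neurons, highest in Adcyap1, had the least Pam at every stage. Cpe, which trims the cut ends and was singled out after its values were seen, lay between 227 and 369 FPKM at P1, against 43.9 to 80.1 FPKM at E15.

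The dense-core vesicle list gave 13 tested genes, of which 12 were higher and 0 lower at P1 than at E15 (0 lower also at an unadjusted limma p under 0.05), where 67.4% of all genes were called and 33.8% were higher. Their median difference was 2.19 on the log2 scale, beside 0.00 over all genes. In callosal against corticothalamic neurons 2 were higher and 5 lower, where 31.3% of all genes were called. Chgb, a granin that helps form the vesicles, had 19.1, 23.0, 32.2 and 73.5 FPKM in callosal neurons and 21.1, 29.6, 48.5 and 103 FPKM in subcerebral neurons at E15, E16, E18 and P1. Corticothalamic neurons had 27.6, 34.8, 90.5 and 267 FPKM, and callosal neurons were lower than these by -1.10 ± 0.21 (limma adjusted p = 0.00607). Scg2, another granin, was instead a callosal gene, with 1.51, 10.6, 31.0 and 67.6 FPKM in callosal neurons and at most 16.7 FPKM in subcerebral and 5.87 FPKM in corticothalamic neurons. It was higher in callosal than in subcerebral neurons by 2.01 ± 0.54 (adjusted p = 0.0263) and than in corticothalamic neurons by 2.19 ± 0.54 (adjusted p = 0.0171). Syt4, a synaptotagmin of dense-core vesicles, lay between 150 and 288 FPKM in callosal neurons, between 18.1 and 304 FPKM in subcerebral neurons and between 6.53 and 28.3 FPKM in corticothalamic neurons. It was higher in callosal than in corticothalamic neurons by 3.68 ± 0.44 (adjusted p = 0.000616). Cadps, which primes dense-core vesicles for release, lay between 6.22 and 23.7 FPKM in callosal, between 38.6 and 42.6 FPKM in subcerebral and between 31.4 and 35.3 FPKM in corticothalamic neurons. It was lower in callosal neurons, by -1.48 ± 0.30 (adjusted p = 0.00854) against subcerebral and by -1.20 ± 0.30 (adjusted p = 0.0167) against corticothalamic neurons.

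**Figure D5:**
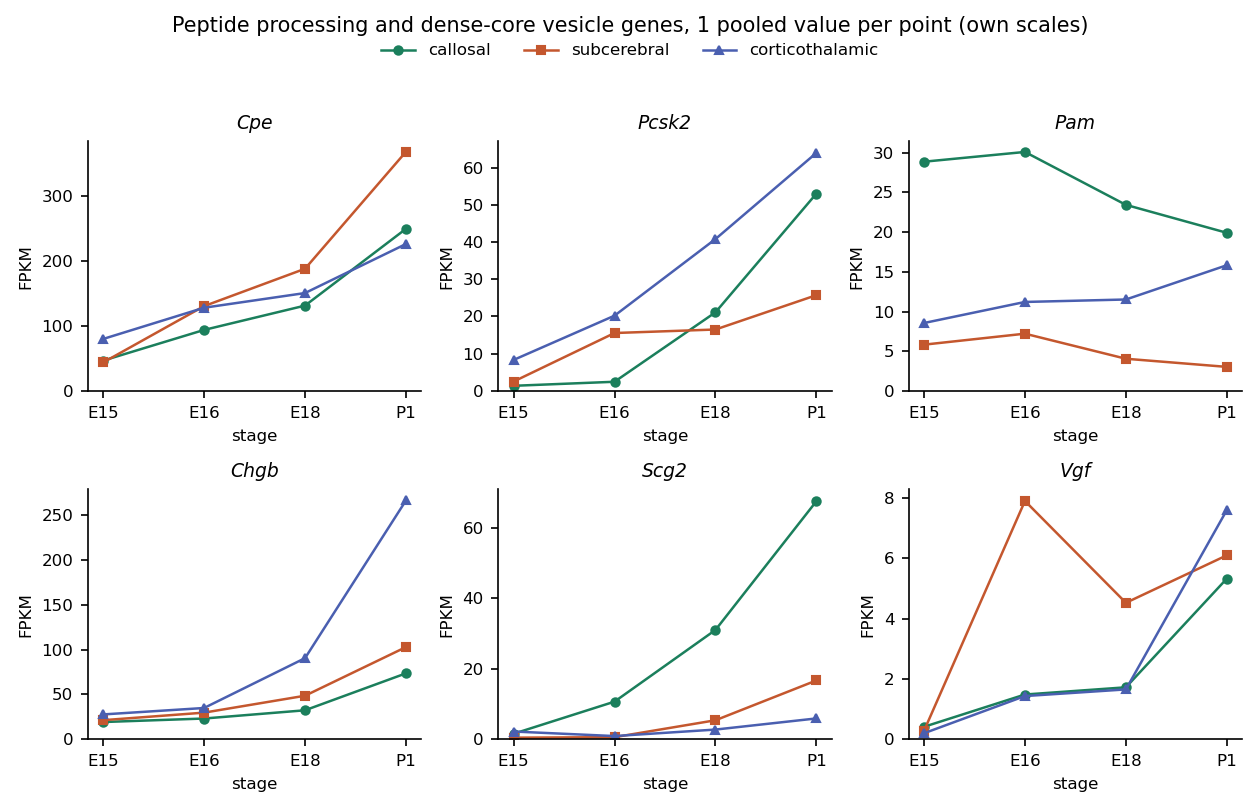
FPKM (vertical axis, a separate scale in each panel) of 3 peptide processing genes (Cpe, Pcsk2, Pam) and 3 dense-core vesicle genes (Chgb, Scg2, Vgf) at E15, E16, E18 and P1 in callosal (circles), subcerebral (squares) and corticothalamic (triangles) neurons, 1 pooled value per point with no error. Chgb is highest in P1 corticothalamic neurons at 267 FPKM, Scg2 in P1 callosal neurons at 67.6 FPKM, and Pam is highest in callosal neurons at every stage.

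Enzymes that degrade released peptides gave 8 tested genes. In callosal against subcerebral neurons 2 were higher and 2 lower, where 29.3% of all genes were called. In callosal against corticothalamic neurons 2 were higher and 1 lower (31.3% of all genes called), and in subcerebral against corticothalamic neurons 2 were higher and 2 lower (27.5% of all genes called). Mme, which encodes neprilysin, a protease that cleaves enkephalins and substance P, lay between 0.0388 and 0.847 FPKM in callosal, between 0.321 and 1.28 FPKM in subcerebral and between 4.87 and 8.69 FPKM in corticothalamic neurons. It was lower in callosal than in corticothalamic neurons by -2.27 ± 0.22 on the log2 scale (limma adjusted p = 0.000219) and lower in subcerebral than in corticothalamic neurons by -1.96 ± 0.22 (adjusted p = 0.00175). Its corticothalamic values would pass the filter by themselves, and its only other value above 1 FPKM was in P1 subcerebral neurons. Ece2, an endothelin-converting enzyme, was higher in callosal than in subcerebral neurons by 1.56 ± 0.18 (adjusted p = 0.000845). Thop1, an oligopeptidase that cleaves neurotensin, was lower in callosal neurons than in subcerebral ones by -0.37 ± 0.08 (adjusted p = 0.0113) and higher in subcerebral than in corticothalamic neurons by 0.39 ± 0.08 (adjusted p = 0.0131).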

How the data were processed

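Poly(A)-selected RNA from flow-sorted neurons was sequenced in 24 libraries, 2 per group. The authors aligned reads with TopHat2 and quantified them with Cufflinks against mm9, per the submitters' processing notes (without versions). The deposited table holds 1 FPKM value per gene and group; the unit was inferred from the values and the tools, and the sources used here do not say how the 2 libraries were combined. Values were used as deposited. Tests used limma 3.58.1 in R 4.3.3 with a trended, robust variance on log2(FPKM + 1) and additive stage and subtype terms. They had 12 values and 6 residual degrees of freedom, for genes that reached 1 FPKM in 2 or more groups. A p-value therefore has no spread between libraries behind it. The procedure was tested on simulated data in which subtype differences were the same at every stage. That run does not show how sound the p-values are for these data. The 10 genes, the lists and the markers were chosen with earlier results of these data known. From the other lists, genes named are among the 4 largest differences past the threshold per list and subtype comparison, or are receptors of the peptides. Cpe, Scg5 and Vgf are exceptions, since they passed in no subtype comparison. Not all genes that meet the rule are described, and those described were picked with values known. Alternatives changed the pseudocount, filter, scaling, the values fitted, and left out each stage, subtype or group. Promoters came from RefSeq's GRCm38.p6, a later build than mm9, and were matched by symbol.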

Additional observations from a re-analysis of the deposited data

Results flagged for a closer look

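Cck moved in opposite directions between E15 and E16. The E16 level was 1.53 times the E15 level in callosal neurons, 0.132 times in subcerebral neurons and 0.25 times in corticothalamic neurons. It drew attention because the subtypes changed in opposite directions over the same step, and the difference was not tested, since each group has 1 pooled value.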

How the results depend on the processing

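No paired analysis was possible because the table has no column per library, and leaving out a library could not be tried; whole groups, stages and subtypes were left out instead. Of 591 member differences recomputed under alternatives, 517 kept their direction and their side of the threshold, 41 lost the call, 27 gained it and 6 changed sign. Those that gained it include differences of Nts and Penk, from which no call is read. The sign changes were in uncalled differences: callosal minus corticothalamic Adcyap1 was -0.0085 without the E15 callosal value, and Cck was -0.052 without E16, -0.20 without E18, -0.094 without the E16 callosal value, -0.17 without the E18 callosal value and -0.074 without the E18 corticothalamic value.

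Counts of called members that moved by more than 1.5 times, or to or from 0, are given here. Smaller moves are not listed. Among those are the loss of Cck from P1 minus E15 with no filter and its gain in callosal minus subcerebral without E15. Where a call of Nts or Penk is known to be among the counts given, it is named, since no call is read from these genes. Callosal minus subcerebral (2 in the report) gave 1 without E16, 0 without E18, 1 without P1 and 1 without the E18 subcerebral value. Callosal minus corticothalamic (2) gave 4 without E15 (Penk among them), 1 without E16, 0 without E18, and 1 without the E18 callosal or the E16 corticothalamic value. Subcerebral minus corticothalamic (3) gave 5 without E15 or the E15 subcerebral value (Penk among them each time), and 1 without E16 or E18. E16 minus E15 (1) gave 3 with a pseudocount of 0.1 and 2 without callosal neurons (Nts among them both times), and 2 without the E15 callosal value. That comparison gave 0 without subcerebral neurons, with only the 6 values of these stages, or without the E15 subcerebral, E16 subcerebral or E16 corticothalamic value. E18 minus E16 (0) gave 2 with only the 6 values of these stages, and 1 without the E15 callosal or E15 corticothalamic value. It also gave 1 without callosal neurons or the E16 callosal value, which was Nts both times. P1 minus E18 (1) gave 2 with only the 6 values of these stages or without the E15 corticothalamic value, and 0 without subcerebral or corticothalamic neurons or the P1 callosal, E18 subcerebral, P1 subcerebral or E18 corticothalamic value. P1 minus E15 (3) gave 1 without subcerebral neurons or the P1 callosal or P1 subcerebral value. Fewer values leave fewer degrees of freedom, and the cause was not tested further.

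Counts over the other gene lists stayed within 1.5 times in 351 of 435 alternatives. Over all genes, the called number ranged from 1013 to 6154 for callosal minus subcerebral (4093 in the report's fit), 1859 to 5277 for callosal minus corticothalamic (4361), 259 to 6244 for subcerebral minus corticothalamic (3835), 6 to 1141 for E16 minus E15 (719), 6 to 2415 for E18 minus E16 (620), 2282 to 7527 for P1 minus E18 (5609) and 6202 to 11405 for P1 minus E15 (9400). Depth is unknown, so how far low values such as those of Pdyn, Crh and Tac1 can be trusted cannot be said.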
